A study of Homo sapiens with 31 samples.

Results

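MCF10A cells, an established line of human mammary epithelium that grows without being transformed, were released from starvation with or without the drug palbociclib. Over that time the genes of 5 inhibitors of cyclin-dependent kinases (CDKs) were followed. They are CDKN1A (protein p21), CDKN1B (p27) and CDKN1C (p57) of the CIP/KIP family and CDKN2C (p18) and CDKN2D (p19) of the INK4 family. The members were taken by gene symbol, and all 5 were found among the 56269 gene names of the count tables. All 5 also passed the filter on low counts that left 15787 genes for testing.

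CIP/KIP proteins bind complexes of a cyclin with its kinase, above all those of CDK2, and stop their activity. INK4 proteins bind CDK4 and CDK6 and keep D cyclins from them. They act on the same kinases as palbociclib, a small molecule that blocks the activity of CDK4 and CDK6. When these kinases are active they phosphorylate the retinoblastoma protein, which releases E2F transcription factors. In starved epithelial cells p27 is the inhibitor best known for holding cells out of the cycle, p21 can be induced by growth factors and by stress, and much of the control of p21 and p27 lies in the breakdown of the proteins, which transcript counts do not measure.

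Cells treated with palbociclib were released from starvation into full growth medium with 1 µM of the drug and taken at 9, 12, 15 and 24 h. Control cells were released into the same medium with 0.1% DMSO, the vehicle, and taken at 3, 6, 9, 12, 15 and 24 h. The 0 h cells had been starved for 2 to 3 days in medium without horse serum, EGF or insulin, while hydrocortisone and cholera toxin were present in both media. Each of the 11 groups had 3 libraries except the palbociclib and DMSO groups at 24 h, which had 2 each (replicates 1 and 3), for 31 libraries in all, and 1 line was used throughout. As background, MCF10A cells are known to carry a deletion of the locus of the other INK4 genes, CDKN2A and CDKN2B.

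The libraries held 10342358 to 20878364 gene counts. All 13 basal epithelial markers examined were detected, with a summed level of 14759 to 34127 CPM (counts scaled to a fixed library size). Of 8 luminal markers 6 passed the filter (sum 596 to 1340 CPM, mostly KRT8, KRT18 and MUC1) and of 7 mesenchymal markers 4 (506 to 865 CPM, mostly VIM). Of 8 blood and endothelial markers only CD14 and PECAM1 passed (7.01 to 39.2 CPM), and PTPRC, CD3E, HBB, CDH5 and VWF did not exceed 0.254 CPM in any library. Within groups, 27.5% of the variance lay on an axis on which replicate 3 scored 7.84 to 27.2 with palbociclib and 11.4 with DMSO at 24 h, but −18.5 to −7.51 at 0 h and with DMSO at 3 to 15 h, where replicate 2 scored 12.0 to 24.8. Replicate 1 of palbociclib was as far out on the other side at 15 h (−31.6) and 24 h (−25.4), and with 2 libraries a group at 24 h the scores mirror each other, so the axis does not say which of the 2 differs. Results that change without replicate 3 of the palbociclib groups and of DMSO at 24 h (called the 5 libraries from here on), or without any single library, are given both ways. CPM values are scaled by the library total and TMM factors, so in these bulk samples fewer cells that express a gene and less RNA per cell cannot be told apart.

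CDKN2A and CDKN2B had 0 counts in all 31 libraries. A count of 0 allows up to 3 counts, or 0.144 to 0.290 CPM depending on the library, for counting error only. The lowest count of any member was 8, for CDKN2C in a DMSO library at 6 h. The INK4 transcripts that were measured were therefore those of CDKN2C and CDKN2D.

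Scaled by exon length (CPM per kb of annotated exon), CDKN1A was the most abundant of the 5 in every group. Its share of the summed length-scaled level was 67.6% ± 3.3 in starved cells, 88.8% ± 0.92 with DMSO at 3 h (SD, n = 3 each) and 71.4% ± 0.34 with DMSO at 24 h (n = 2). At 24 h with palbociclib it was 81.2% ± 1.4 (n = 2). CDKN1B came next at 0 h, with 22.9 ± 0.56 CPM per kb against 91.8 ± 10.3 for CDKN1A, 15.8 ± 1.9 for CDKN1C, 3.04 ± 0.55 for CDKN2D and 1.97 ± 0.11 for CDKN2C. The INK4 genes together held 2.37 ± 0.43 CPM per kb with palbociclib at 24 h, against 11.3 ± 0.38 with DMSO at 24 h and 5.01 ± 0.46 at 0 h. Isoforms of unequal length are merged in this scaling. CDKN2D exceeded CDKN2C in CPM per kb in 9 groups. With DMSO at 15 h CDKN2C stood at 1.75 ± 0.35 and CDKN2D at 1.62 ± 0.15 CPM per kb, and with DMSO at 24 h CDKN2C stood at 6.56 ± 0.51 and CDKN2D at 4.76 ± 0.14 CPM per kb.

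**Figure D1:**
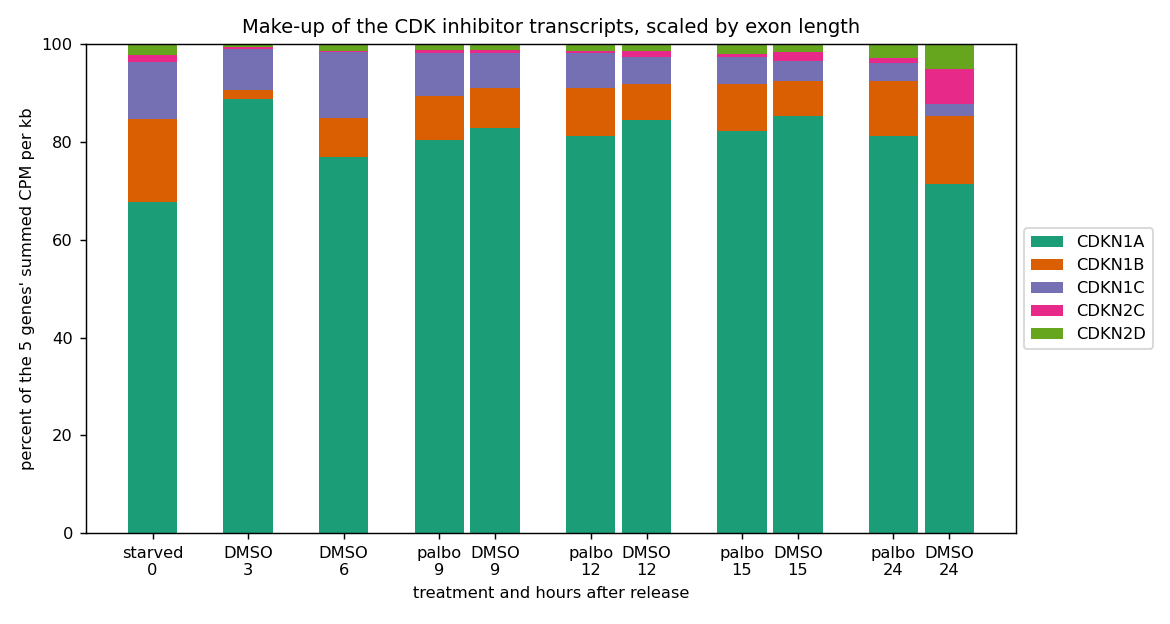
Stacked bars give each gene's mean share (percent) of the summed CPM per kb of the 5 genes in each group, with hours after release on the x axis and palbociclib to the left of DMSO at shared times. CDKN1A held 67.6% at 0 h and 88.8% with DMSO at 3 h, and CDKN2C and CDKN2D are visible mainly with DMSO at 24 h.

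The first comparison asked how the 5 transcripts changed as cells left starvation without the drug. At 3 h CDKN1A and CDKN1C rose, and CDKN1B, CDKN2C and CDKN2D fell. By 6 h all 5 were below their 0 h level. At 24 h CDKN2C and CDKN2D stood above it, and the CIP/KIP genes below it.

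CDKN1A had 842, 945 and 819 CPM with DMSO at 3 h, against 312, 249.6 and 278 at 0 h. The groups did not overlap, and the log2 fold change was 1.63 ± 0.08 (SE; adjusted p = 2.64e-18). The peak was short. At 6 h the libraries had 179, 189.7 and 191 CPM, a log2 change of −2.22 ± 0.08 relative to 3 h (adjusted p = 8.53e-21), and were below all 0 h libraries (log2 −0.59 ± 0.08, adjusted p = 3.59e-08). The mean was then 187.6 ± 16.2 CPM (9 h), 219 ± 13 (12 h) and 247 ± 11 (15 h), and the 15 h libraries (248, 258 and 236 CPM) overlapped those of 0 h. The 24 h DMSO libraries had 203.7 and 200.02 CPM. CDKN1A lies on chromosome 6 (GRCh38, 36676460 to 36687339, plus strand), and none of its 3050 exonic bases is shared with another annotated gene, which also holds for the other 4 members.

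CDKN1C, whose product p57 is the CIP/KIP inhibitor tied most closely to differentiation and imprinting, peaked with CDKN1A. It had 66.2, 86.7 and 57.7 CPM with DMSO at 3 h, against 41.0, 45.8 and 35.9 at 0 h (log2 0.79 ± 0.11, adjusted p = 1.34e-07). All 3 h libraries were above all 0 h libraries, and the spread at 3 h (SD 14.9 CPM) was the widest of any group for this gene. After that its mean was lower at each later DMSO time: 27.7 ± 2.0 CPM (6 h), 13.6 ± 1.4 (9 h), 11.9 ± 1.1 (12 h) and 9.80 ± 0.915 (15 h), and 5.90 and 6.34 CPM in the 24 h libraries. Relative to 0 h the log2 change at 24 h was −2.73 ± 0.16 (adjusted p = 3.18e-16). It was the lowest of the CIP/KIP genes at 24 h in CPM per kb (2.37 ± 0.12). CDKN1C lies on chromosome 11 (2883213 to 2885881, minus strand, 2586 exonic bases).

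CDKN1B behaved in the opposite way at 3 h. Its libraries had 13.9, 17.5 and 18.1 CPM with DMSO at 3 h, against 63.7, 66.3 and 63.4 at 0 h (log2 −1.96 ± 0.10, adjusted p = 1.24e-17). The groups were far apart, and the level then stayed within a narrow band, with means of 17.96 ± 2.1 CPM (6 h), 17.3 ± 2.7 (9 h), 17.8 ± 0.96 (12 h) and 19.5 ± 2.4 (15 h). None of the 4 steps between neighbouring times from 3 to 15 h passed the test for this gene (adjusted p 0.355 to 0.851). The DMSO libraries at 24 h had 35.5 and 36.9 CPM, above all libraries of 15 h (log2 0.89 ± 0.11, adjusted p = 7.35e-08) and still below all of 0 h. CDKN1B lies on chromosome 12 (12715058 to 12722371, plus strand, 2811 exonic bases).

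Unlike CDKN1B, which was already in its low band at 3 h, CDKN2C, an INK4 gene, fell further from 3 to 6 h. It had 3.25, 4.03 and 3.72 CPM with DMSO at 3 h, against 6.41, 6.23 and 6.92 at 0 h (log2 −0.82 ± 0.17, adjusted p = 1.41e-04). Its minimum came at 6 h, at 0.622, 1.059 and 0.926 CPM (8, 22 and 12 counts), with a log2 change of −2.85 ± 0.22 relative to 0 h (adjusted p = 4.33e-13). From then on the mean was higher at each later DMSO time: 1.53 ± 0.34 CPM (9 h), 3.30 ± 0.43 (12 h) and 5.81 ± 1.15 (15 h), and 23.0 and 20.6 CPM in the 24 h libraries. At 15 h it did not differ detectably from 0 h (log2 −0.15, 95% interval −0.48 to 0.18), and at 24 h it was 1.74 ± 0.16 log2 units above it (adjusted p = 1.53e-11). CDKN2C lies on chromosome 1 (50960745 to 50974633, plus strand, 3318 exonic bases).

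CDKN2D, the other INK4 gene, also had its highest level with DMSO at 24 h. It had 2.67, 3.76 and 3.21 CPM with DMSO at 3 h, against 5.23, 4.84 and 3.64 at 0 h. These groups overlapped, and the call at 3 h (log2 −0.49 ± 0.19, adjusted p = 0.0286) was lost in DESeq2 (adjusted p = 0.11), without the filter on low counts (0.0707), without the 5 libraries (0.0587), in a fit of the 2 groups alone (0.0982) and without any of 4 single libraries, namely replicate 1 (0.127) or 2 (0.0809) of 0 h and replicate 1 (0.156) or 3 (0.0713) of 3 h. The mean was 1.68 ± 0.31 CPM (6 h), 1.33 ± 0.42 (9 h), 1.91 ± 0.47 (12 h) and 2.43 ± 0.23 (15 h), each group below all 0 h libraries. The 24 h DMSO libraries had 7.01 and 7.30 CPM, above all 0 h libraries (log2 0.65 ± 0.19, adjusted p = 0.00294). CDKN2D lies on chromosome 19 (10566462 to 10569059, minus strand, 1503 exonic bases).

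**Figure D2:**
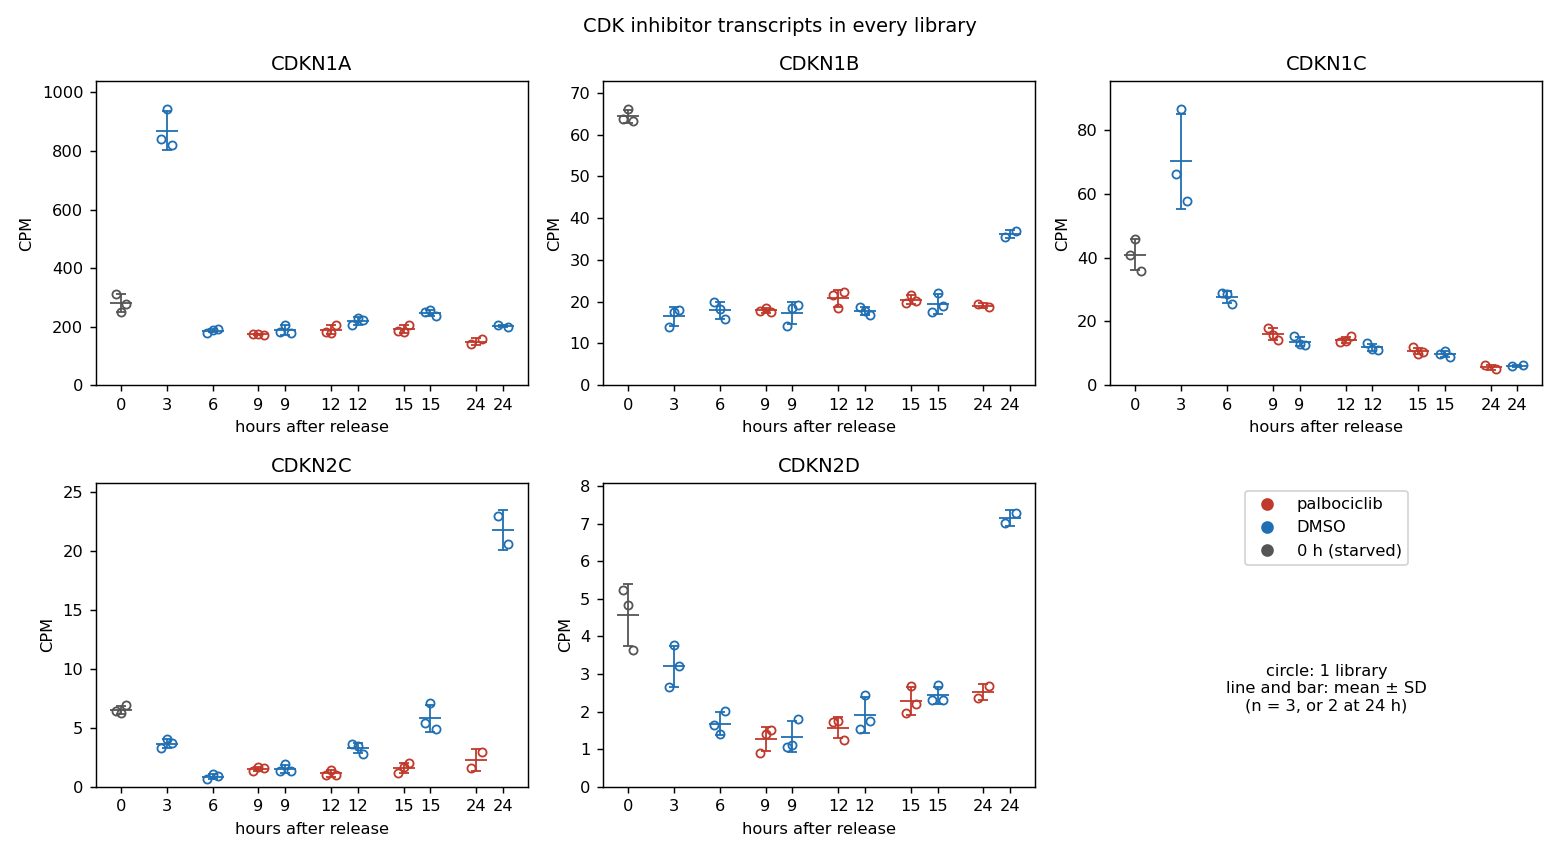
Each panel shows 1 gene, with CPM on a linear axis from 0 and hours after release on the x axis, palbociclib (red) to the left of DMSO (blue) at shared times and starved cells in grey. Circles are libraries, and lines with bars are the mean ± SD. CDKN1A and CDKN1C peak at 3 h, CDKN1B is highest at 0 h, and CDKN2C and CDKN2D are highest with DMSO at 24 h, where the palbociclib libraries of CDKN2C (1.61 and 2.95 CPM) lie far below.

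The counts of calls were read against all genes, because release changed most of the transcriptome. At 3 h all 5 members were called (2 higher and 3 lower), as were 62.2% of the genes tested (27.8% higher and 34.4% lower). At 6, 9 and 12 h all 5 were called lower, against 73.5%, 75.1% and 75.7% of genes called in either direction and 39.5%, 39.9% and 39.6% called lower. At 15 h 4 were lower and CDKN2C was not called (76.7% of genes called, 39.3% lower), and at 24 h 2 were higher and 3 lower (75.7%, with 36.7% higher and 38.9% lower). The members' median log2 change was −0.49 (3 h), −1.47 (6 h), −1.81 (9 h), −1.23 (12 h), −0.89 (15 h) and −0.47 (24 h), while that of all genes tested ran from −0.10 to −0.06. With library totals in place of TMM this all-gene median shifted by −0.17 (3 h), −0.11 (15 h) and −0.12 (24 h), and no called member changed direction. Besides CDKN2D at 3 h, the call for CDKN1A at 15 h (log2 −0.18 ± 0.07, adjusted p = 0.0327) was lost in DESeq2 (0.105), with DESeq2's size factors (0.0723), without the filter on low counts (0.0533), without the 5 libraries (log2 −0.07, 0.367), without replicate 1 of 0 h (0.284) and without replicate 1 (0.318), 2 (0.182) or 3 (0.522) of 15 h.

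Steps between neighbouring DMSO times placed the changes. At 6 h, relative to 3 h, 4 members fell and CDKN1B was not called (57.6% of genes called, 29.8% lower). At 9 h, relative to 6 h, CDKN1C changed by −1.02 ± 0.13 and CDKN2C by 0.80 ± 0.28 (adjusted p = 0.0239), with 34.8% of genes called (18.1% higher and 16.6% lower). The rise of CDKN2C was lost in a fit of these groups alone (0.0538), without replicate 1 of 6 h (0.104) and without replicate 2 of 9 h (0.215). At 12 h, relative to 9 h, CDKN2C rose by 1.08 ± 0.22 (adjusted p = 4.94e-04) and CDKN1A by 0.22 ± 0.08 (adjusted p = 0.0442), with 15.2% of genes called (9.07% higher). This rise of CDKN1A did not pass with library totals (0.0574), with DESeq2's size factors (0.0561), without the filter (0.0842), or without replicate 1 (0.213) or 3 (0.183) of 9 h or replicate 2 (0.164) or 3 (0.0939) of 12 h, while CDKN2D, not called (adjusted p = 0.125), passed without replicate 3 of 9 h (0.0436). At 15 h, relative to 12 h, CDKN2C alone was called (0.82 ± 0.18, adjusted p = 0.00209; 7.01% of genes called, 5.03% higher), a call lost without replicate 2 of 15 h (0.0643).

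At 24 h, relative to 15 h, all 5 members were called, 3 higher and 2 lower. CDKN2C rose by 1.89 ± 0.16, CDKN2D by 1.54 ± 0.21 and CDKN1B by 0.89 ± 0.11 log2 units, and the log2 change was −0.68 ± 0.18 for CDKN1C and −0.29 ± 0.08 for CDKN1A (29.6% of genes called, 16.5% higher and 13.0% lower). The largest adjusted p among these was 0.00829, for CDKN1A, whose call was lost without replicate 1 (0.0604) or 3 (0.103) of DMSO at 24 h, and without the 5 libraries (0.0642). This interval spans 9 h, while the others span 3 h.

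The second comparison set palbociclib against DMSO at the same time and asked which of these transcripts differed with the drug. Whether they depend on CDK4/6 activity itself was not tested. CDKN2C was lower with palbociclib from 12 h on, and at 24 h 4 of the 5 were lower, with CDKN2C at a fold of 0.109. CDKN1A was called lower at 15 and 24 h, CDKN1B and CDKN2D at 24 h alone, and CDKN1C at none of the 4 times. No member was called higher with palbociclib at any of them. Of all 15787 genes tested, 18, 131, 340 and 910 were called higher at 9, 12, 15 and 24 h.

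At 9 h no member was called in edgeR, at an unadjusted p below 0.05 or in DESeq2 (0 of 5 each; 1.19% of genes called). CDKN2C had 1.345, 1.65 and 1.57 CPM with palbociclib and 1.33, 1.93 and 1.34 with DMSO, which overlap. The 95% intervals of the log2 difference at 9 h were −0.27 to 0.04 for CDKN1A, −0.16 to 0.27 for CDKN1B, −0.05 to 0.49 for CDKN1C, −0.54 to 0.47 for CDKN2C and −0.56 to 0.53 for CDKN2D. Differences inside these intervals are not excluded by the data at 9 h.

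At 12 h CDKN2C had 0.983, 1.45 and 0.975 CPM with palbociclib, against 3.60, 3.497 and 2.80 with DMSO. The groups did not overlap, and it was the only member called (log2 −1.50 ± 0.23, adjusted p = 1.46e-05; 5.64% of genes called, 4.81% lower). CDKN1A had 182, 177 and 206 CPM with palbociclib and 205, 230.0 and 222 with DMSO, and did not pass (log2 −0.22 ± 0.08, adjusted p = 0.102). It passed in a fit of these groups alone (0.0395) and without replicate 3 of palbociclib at 12 h (0.0393). CDKN1B (log2 0.21 ± 0.10, adjusted p = 0.316) and CDKN1C (0.26 ± 0.14, 0.382) had positive values that did not pass. CDKN2D did not pass either (−0.29 ± 0.24, adjusted p = 0.657). At an unadjusted p below 0.05 there were 3 members, CDKN2C, CDKN1A and CDKN1B.

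At 15 h CDKN2C had 1.19, 1.64 and 2.02 CPM with palbociclib, against 5.41, 7.105 and 4.91 with DMSO (log2 −1.83 ± 0.20, adjusted p = 1.50e-08). CDKN1A had 184, 181 and 206 CPM with palbociclib, against 248, 258 and 236 with DMSO (log2 −0.38 ± 0.08, adjusted p = 4.99e-04). Neither gene's groups overlapped, and these 2 were the members called (10.9% of genes called, 8.79% lower). CDKN1B had 20.5 ± 1.0 CPM with palbociclib and 19.5 ± 2.4 with DMSO (n = 3 each), with a 95% interval of the log2 difference of −0.14 to 0.28. CDKN2D had 2.28 ± 0.37 CPM with palbociclib and 2.43 ± 0.23 with DMSO (interval −0.53 to 0.36), and CDKN1C 10.7 ± 1.0 with palbociclib and 9.80 ± 0.915 with DMSO (interval −0.19 to 0.41).

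At 24 h the INK4 genes showed the largest differences among the members. CDKN2C had 1.61 and 2.95 CPM with palbociclib (17 and 43 counts), against 23.0 and 20.6 with DMSO (331 and 389 counts), a log2 difference of −3.20 ± 0.21 (adjusted p = 1.07e-13). CDKN2D had 2.37 and 2.68 CPM with palbociclib, against 7.01 and 7.30 with DMSO (log2 −1.49 ± 0.24, adjusted p = 1.48e-05). For both genes every DMSO library was above every palbociclib library.

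The CIP/KIP genes moved less. CDKN1B had 19.5 and 18.6 CPM with palbociclib, against 35.5 and 36.9 with DMSO (log2 −0.93 ± 0.12, adjusted p = 4.37e-07). CDKN1A had 141 and 157 CPM with palbociclib, against 203.7 and 200.02 with DMSO (log2 −0.44 ± 0.09, adjusted p = 8.54e-04), a call lost without replicate 1 of palbociclib at 24 h (log2 −0.34, adjusted p = 0.0652). CDKN1C had 6.15 and 4.94 CPM with palbociclib and 5.90 and 6.34 with DMSO, groups that overlap (log2 −0.17, 95% interval −0.62 to 0.29, adjusted p = 0.683).

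At 24 h 4 of 5 members were thus lower, against 18.0% of genes called in either direction and 12.3% called lower, and the members' median log2 difference was −0.93 against 0.01 for all genes tested. Without the 5 libraries, which leaves 1 library a group at 24 h whose spread is taken from the other groups, the same 4 members were called: CDKN2C at −3.84 (adjusted p = 4.93e-10), CDKN2D at −1.57 (0.00626), CDKN1B at −0.88 (0.00289) and CDKN1A at −0.55 (0.0071).

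**Figure D3:**
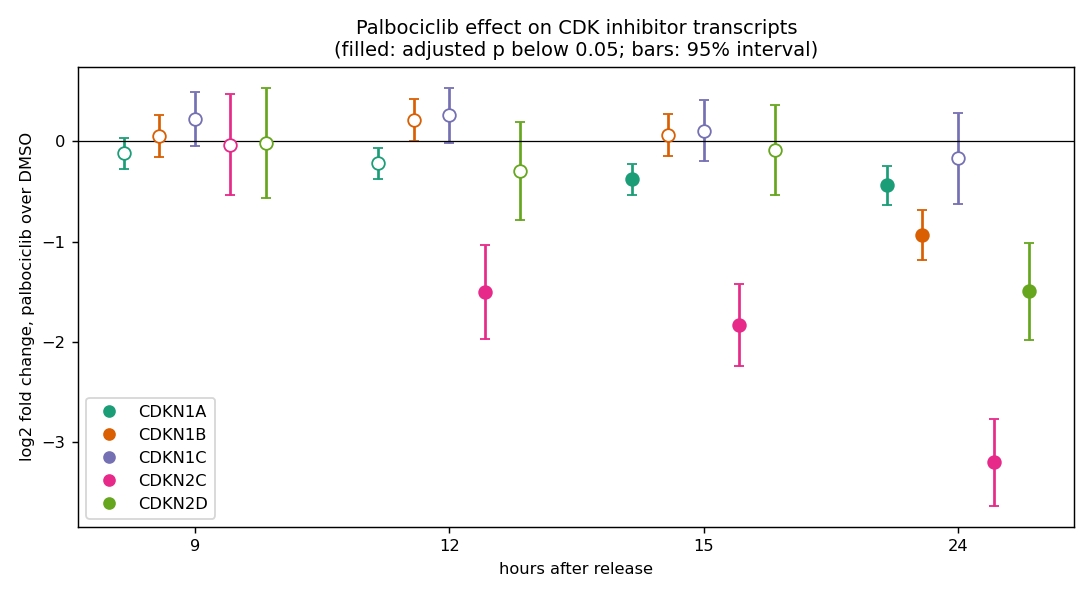
Points are log2 fold changes of palbociclib over DMSO (y axis) at 9, 12, 15 and 24 h after release (x axis) for the 5 genes, with 95% intervals, filled where the adjusted p was below 0.05. CDKN2C departs from 0 at 12 h (−1.50) and reaches −3.20 at 24 h, while CDKN1C stays near 0 throughout.

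Whether the difference itself changed over time was tested with interaction terms. For CDKN2C it was larger at 12 h than at 9 h (log2 −1.47 ± 0.34, adjusted p = 0.0124; 1 of 5 members and 1.74% of genes called, 1.72% in this direction) and larger at 15 h than at 9 h (−1.80 ± 0.32, adjusted p = 2.54e-04; 1 of 5 members and 4.05% of genes called, 3.91% in this direction). Between 15 and 12 h no member passed (0 of 5 in edgeR, at an unadjusted p below 0.05 and in DESeq2; 0.640% of genes called). Between 24 and 15 h the difference became more negative for CDKN1B (−0.998 ± 0.16, adjusted p = 1.01e-04), CDKN2C (−1.37 ± 0.31, 0.00826) and CDKN2D (−1.41 ± 0.33, 0.00979). These were 3 of 5 members, against 2.98% of genes called and 1.92% in this direction. For CDKN1A the change between 24 and 15 h was −0.06 ± 0.12 (adjusted p = 0.9).

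Some of these interaction calls rested on single libraries. That of CDKN2C between 12 and 9 h was lost without the 5 libraries (−1.35, adjusted p = 0.0922), without replicate 1 of DMSO at 9 h (0.0514) and without replicate 2 of palbociclib at 9 h (0.0648). Between 24 and 15 h that of CDKN2C was lost without replicate 1 of palbociclib at 24 h (−1.04, 0.126) or replicate 3 of palbociclib at 15 h (0.0594), and that of CDKN2D without the 5 libraries (0.137), replicate 1 of palbociclib at 24 h (0.0727) or replicate 2 of palbociclib at 15 h (0.0516).

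The palbociclib groups were also followed over time. All 5 members were lower than at 0 h at 9, 12, 15 and 24 h, against 75.7%, 75.4%, 75.0% and 71.1% of genes called and 40.8%, 40.4%, 39.9% and 36.9% called lower. The call for CDKN2D at 24 h (log2 −0.84 ± 0.23, adjusted p = 0.00176) was lost without replicate 1 of palbociclib at 24 h (0.056). Relative to DMSO at 6 h, the last earlier time sampled, palbociclib at 9 h had CDKN1C lower (−0.80 ± 0.12, adjusted p = 5.18e-06) and CDKN2C higher (0.77 ± 0.28, adjusted p = 0.0283; 38.1% of genes called, 19.8% higher and 18.3% lower). This rise of CDKN2C was lost without the filter on low counts (0.0507), without the 5 libraries (0.0511), or without replicate 1 (0.113) or 3 (0.0529) of DMSO at 6 h or replicate 2 (0.0952) or 3 (0.0632) of palbociclib at 9 h.

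No member was called between palbociclib at 12 and 9 h in edgeR, at an unadjusted p below 0.05 or in DESeq2 (11.9% of genes called). Between 15 and 12 h none was called in edgeR or DESeq2 (2.97%), with 2 at an unadjusted p below 0.05, CDKN1C (log2 −0.42 ± 0.14, adjusted p = 0.114) and CDKN2D (0.55 ± 0.23, 0.276), and CDKN1C passed without the filter (0.0308). At 24 h, relative to 15 h, the log2 change was −0.96 ± 0.19 for CDKN1C (adjusted p = 3.99e-04) and −0.35 ± 0.09 for CDKN1A (adjusted p = 0.00318), with 20.5% of genes called (9.31% lower). The first call was lost without the 5 libraries (0.0582) and the second without replicate 1 of palbociclib at 24 h (0.124), where CDKN2C passed instead (log2 0.85, adjusted p = 0.0491, against 0.52 ± 0.27 and 0.186 with all libraries). With DMSO, over the same interval, CDKN1B, CDKN2C and CDKN2D rose, and with palbociclib their log2 changes were −0.11 ± 0.12, 0.52 ± 0.27 and 0.13 ± 0.25.

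Ordered by mean CPM, the groups ranked differently for each gene. CDKN1A ran from 869 ± 67 CPM (DMSO at 3 h) to 149 ± 12 (palbociclib at 24 h), and of the groups ranked 5 to 9 (DMSO at 24 h, palbociclib at 15 and 12 h, DMSO at 9 and 6 h) each overlapped its neighbours within that run. CDKN1B had 2 groups clear of all others, 0 h and DMSO at 24 h, and its other 9 groups, from 20.8 ± 2.0 to 16.5 ± 2.2 CPM, each overlapped its neighbours within that run. For CDKN1C the top 3 groups (DMSO at 3 h, 0 h and DMSO at 6 h) and the lowest pair (palbociclib and DMSO at 24 h) were separate from the rest, in which neighbours overlapped.

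CDKN2C was highest with DMSO at 24 h (21.8 ± 1.7 CPM), followed by 0 h and DMSO at 15 h, which overlapped, and then by 8 groups of which each overlapped the next, down to DMSO at 6 h (0.869 ± 0.22). CDKN2D had DMSO at 24 h alone at the top (7.15 ± 0.20 CPM), and the remaining 10 groups overlapped their neighbours down to palbociclib at 9 h (1.27 ± 0.32). With library totals in place of TMM-scaled values, 2 groups of CDKN1A changed rank and no group of the other 4 genes did, but 0 h no longer overlapped the next group for CDKN1A and CDKN2D.

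The windows around the annotated starts are shown for CDKN2C and CDKN2D, the members that differed most between palbociclib and DMSO at 24 h, and for CDKN1A, the most abundant. They run from 250 bases before to 50 bases after each start (RefSeq, GRCh38.p14), 5′ to 3′ on the gene's strand, with matches to any searched motif in capitals. CDKN2C has 3 annotated windows, which counts per gene do not tell apart (chr1:50960495-50960794, chr1:50968456-50968755 and chr1:50969995-50970294, plus strand), and CDKN2D and CDKN1A have 1 each (chr19:10568930-10569229, minus strand, and chr6:36678464-36678763, plus strand).
CDKN2C window 1: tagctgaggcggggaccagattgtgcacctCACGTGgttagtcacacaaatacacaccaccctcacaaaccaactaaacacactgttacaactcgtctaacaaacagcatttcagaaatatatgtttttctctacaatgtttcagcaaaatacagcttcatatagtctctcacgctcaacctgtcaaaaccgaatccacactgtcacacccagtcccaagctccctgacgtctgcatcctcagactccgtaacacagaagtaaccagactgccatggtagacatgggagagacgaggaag
CDKN2C window 2: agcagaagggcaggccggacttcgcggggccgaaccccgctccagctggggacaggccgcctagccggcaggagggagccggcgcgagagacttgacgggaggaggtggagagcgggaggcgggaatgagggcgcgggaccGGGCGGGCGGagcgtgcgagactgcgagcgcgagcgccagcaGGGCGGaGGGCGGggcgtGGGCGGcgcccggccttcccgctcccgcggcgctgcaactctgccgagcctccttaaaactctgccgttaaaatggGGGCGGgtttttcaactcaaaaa
CDKN2C window 3: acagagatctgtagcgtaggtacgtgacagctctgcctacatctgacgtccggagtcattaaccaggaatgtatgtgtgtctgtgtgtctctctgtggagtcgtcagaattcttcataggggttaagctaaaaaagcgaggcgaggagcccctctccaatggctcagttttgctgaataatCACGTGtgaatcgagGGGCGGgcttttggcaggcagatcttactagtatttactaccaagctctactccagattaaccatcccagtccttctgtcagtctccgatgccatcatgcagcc
CDKN2D: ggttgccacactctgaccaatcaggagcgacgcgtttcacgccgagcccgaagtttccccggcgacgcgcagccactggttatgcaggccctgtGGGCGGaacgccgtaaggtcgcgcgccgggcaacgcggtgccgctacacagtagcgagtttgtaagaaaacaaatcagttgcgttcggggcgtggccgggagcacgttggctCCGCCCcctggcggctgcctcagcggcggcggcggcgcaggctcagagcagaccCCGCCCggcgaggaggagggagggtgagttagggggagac
CDKN1A: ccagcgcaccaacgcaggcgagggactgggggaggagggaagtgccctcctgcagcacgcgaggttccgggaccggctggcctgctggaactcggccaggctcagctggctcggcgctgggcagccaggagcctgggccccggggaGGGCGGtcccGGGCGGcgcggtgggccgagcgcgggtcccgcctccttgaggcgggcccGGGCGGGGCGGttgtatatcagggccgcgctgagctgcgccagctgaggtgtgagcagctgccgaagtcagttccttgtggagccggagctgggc

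Exact letters were searched on both strands, overlaps allowed: TTTGGCGC or TTTCGCGC (E2F), TGTTTAC (forkhead factors), CACGTG (the E-box), GGGCGG (the GC box bound by SP1) and TTTGAA (the CHR element). GGGCGG, found in 45% of the 35116 promoter windows in the table, had 6 matches in CDKN2C window 2, 1 in window 3, 3 in CDKN2D and 4 in CDKN1A, and 1 in the window of CDKN1B (chr12:12717118-12717417, plus strand, not printed). In CDKN1A the matches that begin at −45 and −40 from the start overlap, as do those of CDKN2C window 2 at −109 and −105, and 2 of the 3 in CDKN2D read as CCGCCC, on the other strand. CACGTG, found in 7.26% of windows, had 1 match in CDKN2C window 3, at −69, and 1 in window 1, at −220. The E2F letters (1.15% of windows), the forkhead letters (3.42%) and the CHR letters (15.2%) had no match in these 6 windows, which says only that these letters are not in these windows.

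The genes whose pattern over the 11 group means was most like that of each member were found by Pearson correlation of mean log2 CPM among 10759 genes. The palbociclib and DMSO groups have the release from starvation in common, and gene totals of the libraries differed, so these values describe the groups and carry no test. For CDKN1A they were JOSD1, a deubiquitinase (r = 0.989), DENND5A (0.976), TMEM2 (0.973), PPP1R14C (0.964) and B4GALT5, a galactosyltransferase (0.963). For CDKN1B they were JADE1 (0.970), NFYC, a subunit of the factor NF-Y (0.970), EPC1 (0.969), FBXO34 (0.964) and DPF2 (0.964).

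For CDKN1C they were PHLDA3 (0.989), DIP2A (0.984), HLA-C (0.979), ZFP36, which promotes the decay of AU-rich messages (0.979), and PPFIA1 (0.979). For CDKN2C they were HIRIP3 (0.981), HNRNPUL1 (0.973), HMGB2 (0.971), TOP2A, the topoisomerase of mitotic chromosomes (0.969), and FAM111A (0.969). For CDKN2D they were CDC25B, a phosphatase that activates CDKs (0.982), SERPINA1 (0.975), ZNF165 (0.963), PRR11 (0.952) and KCTD3 (0.949). The correlation takes no account of the size of the changes. Group means of HLA-C, for example, ran from 211 to 282 CPM, and those of CDKN1C from 5.55 to 70.2 CPM. Among the members themselves the pair most alike was CDKN2C and CDKN2D (r = 0.885), followed by CDKN1A and CDKN1C (0.745) and CDKN1B and CDKN2D (0.713). For CDKN1A and CDKN1B r was −0.0023.

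**Figure D4:**
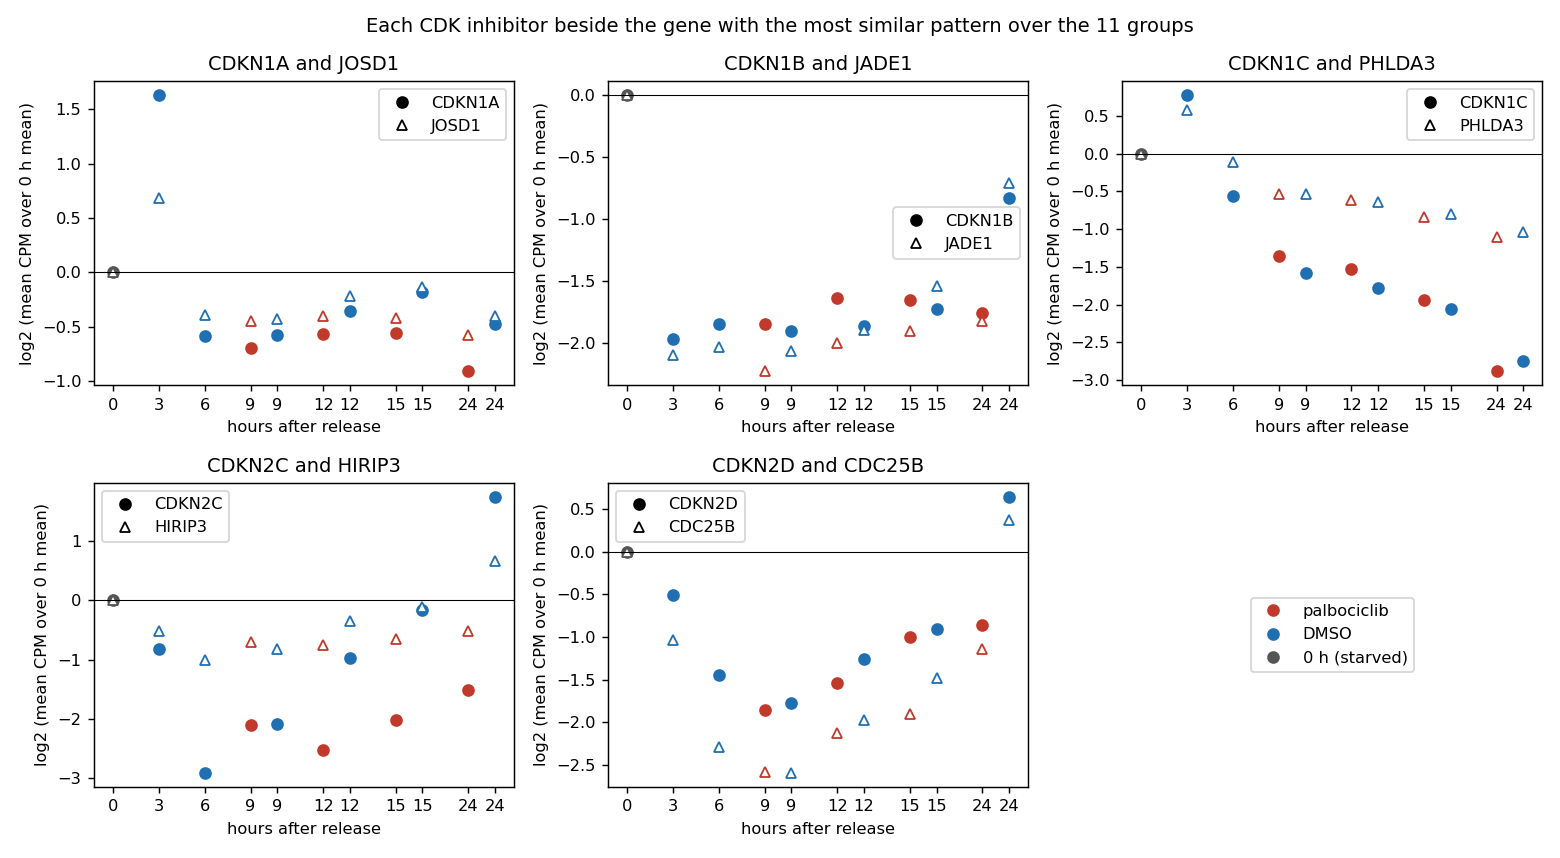
Each panel sets a member (filled circles) beside its most similar gene (open triangles) as log2 of the group's mean CPM over the 0 h mean, by hours after release, with palbociclib (red) to the left of DMSO (blue) at shared times. JOSD1 peaks with CDKN1A at 3 h (233 ± 16 CPM, against 145 ± 5.6 at 0 h), and HIRIP3 and CDC25B, like CDKN2C and CDKN2D, have their highest value with DMSO at 24 h.

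The kinases that the 5 proteins act on, with their cyclins, formed a list of 11 genes. At 3 h 6 were higher and 3 lower than at 0 h (27.8% and 34.4% of all genes tested), and with DMSO at 24 h all 11 were higher (36.7% of all genes). CCND1, cyclin D1, had 209 ± 48 CPM with DMSO at 3 h, against 57.7 ± 9.3 at 0 h (log2 1.86 ± 0.10), and an antisense neighbour covers 10.3% of its exons. CDK2, the main kinase bound by p21 and p27, had 12.4 ± 1.5 CPM in starved cells and 18.3 ± 0.80 (3 h), 48.8 ± 1.9 (12 h) and 65.1 ± 4.1 (15 h) with DMSO, with 16.8% of its exons covered in the same way. In CPM per kb CDKN1A exceeded CDK2 in every group, for example CDKN1A 48.8 ± 3.8 and CDK2 4.64 ± 0.51 with palbociclib at 24 h, and CDKN1A 66.2 ± 0.86 and CDK2 12.6 ± 0.08 with DMSO at 24 h. With palbociclib the list had 4, 5, 7 and 6 members lower at 9, 12, 15 and 24 h, where 170 of 15787 genes, 4.81%, 8.79% and 12.3% of all genes tested were lower. Among them were CDK1 (log2 −4.96 ± 0.13) and CCNA2 (−5.95 ± 0.17) at 24 h. It had 0, 0, 1 and 2 higher, where 18, 131, 340 and 910 of 15787 genes tested were higher. The 2 at 24 h were CCND1 (0.41 ± 0.12, adjusted p = 0.0134) and CCND2 (0.97 ± 0.25, 0.00534).

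Ubiquitin ligase subunits that act on p21, p27 or p57 formed a list of 13 genes. SKP2, the F-box protein that marks p27 for breakdown, was lower at 3 h than at 0 h (log2 −0.51 ± 0.07). It rose at each later DMSO step up to 15 h, with 61.1 ± 1.9 CPM at 15 h against 30.7 ± 2.0 at 0 h. With palbociclib SKP2 was lower at all 4 times, with log2 differences of −0.29 ± 0.07, −0.65 ± 0.07, −0.91 ± 0.07 and −0.80 ± 0.08 at 9, 12, 15 and 24 h. CKS1B, its cofactor for p27, was not called at 9 h (−0.04 ± 0.10, adjusted p = 0.923) and was lower at 12 h (−0.68 ± 0.10), 15 h (−1.06 ± 0.09) and 24 h (−1.89 ± 0.11). DTL, the receptor of the ligase that removes p21 in S phase, was lower at 9 h (−3.89 ± 0.14). In all, 3, 4, 4 and 5 of the 13 were lower with palbociclib at these times, against the same shares of all genes lower (170 of 15787 genes, 4.81%, 8.79% and 12.3%). Higher were 0, 0, 0 and 1 of the 13, against 18, 131, 340 and 910 of 15787 genes.

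Transcription factors known to act on CIP/KIP genes, a list of 16, were mostly lower after release: 11 were lower and 4 higher than at 0 h at 3 h (34.4% and 27.8% of all genes). At 6 h 13 were lower and 1 higher (39.5% of all genes lower and 5375 of 15787 genes higher). FOXO3 and FOXO1, forkhead factors known to induce CDKN1B, changed by −1.29 ± 0.06 and −1.996 ± 0.12 at 3 h. With palbociclib 0 of the 16 were called at 9, 12 or 15 h, where 1.19%, 5.64% and 10.9% of all genes were called, and 3 were lower at 24 h (12.3% of all genes), counts near those shares. The 3 included SMAD3 (−0.36 ± 0.07) and SP1 (−0.35 ± 0.08).

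Pocket proteins and E2F factors, which lie downstream of the kinases, formed a list of 13. Of these 11 were higher and 2 lower than at 0 h with DMSO at 24 h (36.7% and 38.9% of all genes), where CDKN2C and CDKN2D were at their highest. With palbociclib 4, 7, 8 and 7 were lower at 9, 12, 15 and 24 h, where 170 of 15787 genes, 4.81%, 8.79% and 12.3% of all genes were lower. Higher were 0, 0, 1 and 0 of the 13, against 18, 131, 340 and 910 of 15787 genes. At 9 h, when no CDK inhibitor gene was called (95% interval −0.54 to 0.47 for CDKN2C), E2F1 (−4.34 ± 0.22), RBL1 (−1.09 ± 0.09) and E2F7 (−0.71 ± 0.10) were lower. At 24 h E2F1 (−2.52 ± 0.17) and RBL1 (−2.23 ± 0.10) were lower beside CDKN2C at −3.20. The lists were not tested as sets, and links between their genes and the CDK inhibitor genes were not tested.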

How the data were processed

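Per the labels, poly(A) RNA of 31 libraries was prepared with a stranded kit. Per the submitters' processing notes, TopHat2 2.1.1, Bowtie2 2.2.9, Subread 1.5.1 and GRCh38.p7 were used. The authors deposited raw counts of reads for each gene name, made with featureCounts 1.5.1 and the GENCODE 25 annotation per the file headers. The headers name no strand option, so genes that overlap on opposite strands are uncertain.

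The counts were fitted with edgeR 4.0.16 in R 4.3.3 after filterByExpr by group and TMM scaling (factors 0.9273 to 1.081). All libraries shared 1 quasi-likelihood fit (20 residual degrees of freedom), and p-values were adjusted by Benjamini-Hochberg over 15787 genes in each contrast, with calls below 0.05. SE was taken as the size of the log2 fold change divided by the root of F. After a CPM value, ± is the SD (n = 3, or 2 at 24 h). Correlations used log2 CPM with a prior count of 2. The fit was tested on simulated counts. Alternatives were DESeq2 1.42.0, other scalings, no filter, fewer libraries and a replicate block.

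Replicates differed by more than sampling noise (chi-square per degree of freedom 6.008 to 10.904), and each library counted as 1 sample. No label says that replicates came from separate cultures, and the spread that p-values rest on may be technical. The members and lists were chosen with earlier results of these data known. Named genes are the 5 members, the 5 genes most like each, CDKN2A and CDKN2B, up to 3 genes per list, contrast and direction, and SKP2, CCND1 and CDK2. Results that need some other genes of that rule are not reported here. Promoter windows are from RefSeq, which matched 4 of the 5 members.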

Additional observations from a re-analysis of the deposited data

Results flagged for a closer look

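For 5 results a test of the difference between times passed in the fit of all libraries, that is, the palbociclib effect was not the same at both. The calls of CDKN2C between 12 and 9 h, and of CDKN2C and CDKN2D between 24 and 15 h, were lost in some fits with fewer libraries, as given above. For CDKN2C the log2 effect was −1.50 at 12 h and −0.03 at 9 h, a difference of −1.47 (adjusted p = 0.0124). At 15 h the effect on CDKN2C was −1.83, a difference of −1.80 from 9 h (adjusted p = 2.54e-04).

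Between 24 and 15 h the effect on CDKN1B was −0.93 at 24 h and 0.07 at 15 h, a difference of −0.998 (adjusted p = 1.01e-04). For CDKN2C it was −3.20 at 24 h and −1.83 at 15 h, a difference of −1.37 (adjusted p = 0.00826), and for CDKN2D −1.49 and −0.08, a difference of −1.41 (adjusted p = 0.00979). In the DMSO libraries all 3 genes rose between 15 and 24 h, while with palbociclib none was called over that interval in the fit of all libraries. The log2 change of CDKN2C with palbociclib was 0.52 in that fit and −0.07 to 0.85 without single libraries. The effects at 15 and 9 h are from 3 libraries a group and that at 24 h from 2.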

How the results depend on the processing

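Over 135 results for the members (5 genes in 27 contrasts), 1835 alternative values were computed: 1781 kept their direction or stayed uncalled, 48 lost the call, 6 gained one, and none that was called changed sign, while 52 uncalled values did. Among settings that kept all libraries or left out the 5 libraries, the number of members called changed as follows: DMSO at 3 h against 0 h had 4 of 5 in DESeq2, with no filter, in a fit of its own libraries or without the 5 libraries; DMSO at 15 h against 0 h had 3 of 4 in DESeq2, with its size factors, with no filter or without the 5 libraries; palbociclib against DMSO at 12 h had 2 in a fit of its own libraries; DMSO at 9 against 6 h had 1 in such a fit; DMSO at 12 against 9 h had 1 with library totals, with DESeq2's size factors or with no filter; palbociclib at 9 h against DMSO at 6 h had 1 with no filter or without the 5 libraries; palbociclib at 15 against 12 h had 1 with no filter or the replicate block (CDKN1C, adjusted p = 0.0447); without the 5 libraries palbociclib at 24 against 15 h had 1, DMSO at 24 against 15 h 4 of 5, the palbociclib effect at 12 minus 9 h 0 and that at 24 minus 15 h 2 of 3.

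Leaving out single libraries gave 1 to 2 members for palbociclib against DMSO at 12 h, 3 to 4 at 24 h, 4 to 5 for DMSO at 3 h against 0 h, 3 to 4 for DMSO at 15 h against 0 h, 4 to 5 for DMSO at 24 against 15 h and palbociclib at 24 h against 0 h, 1 to 2 for DMSO at 9 against 6 h and at 12 against 9 h, 0 to 1 for DMSO at 15 against 12 h, 1 to 2 for palbociclib at 9 h against DMSO at 6 h, 0 to 1 for the effect at 12 minus 9 h and 1 to 3 for that at 24 minus 15 h. Genes called between palbociclib and DMSO at 9 h were 188, and 300 with no filter. At 24 h they were 2847, 1422 without the 5 libraries and 1797 to 2373 without single libraries, the lowest being 1797 without replicate 3 of DMSO and 1830 without replicate 1 of palbociclib. Where 1 library was left in a group, it is assumed to vary like the others.

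Libraries of the same replicate number were compared between groups, and in 0 of 18 contrasts with 3 numbers did every pair correlate above 0.1. In those of them within DMSO and 0 h the pairs of replicates 2 and 3 had r of 0.11 to 0.42. The pairs of replicate 1 had 0.0024 to 0.061 there. In palbociclib against DMSO at 9, 12 and 15 h 1, 0 and 1 of 3 libraries correlated best with their own number. As a hint from the data, not the design, all 3 did so for DMSO at 3, 9 and 15 h against 0 h and 2 of 3 in the other 6 contrasts within DMSO and 0 h. The replicate block changed the member count only as given above. Of the 25 similar genes, 18 stayed among the 5 most alike with library totals and 24 with a prior count of 0.5. CDKN2C and CDKN2D rested on 8 to 129 counts a library before 24 h, and counting error limits their small differences.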
